A study of Danio rerio with 6 samples.

Results

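abcc13 (ENSDARG00000062519) is a zebrafish gene of subfamily C of the ATP-binding cassette (ABC) transporters, and it was 1 of 32266 genes with an identifier in the deposited tables. It was chosen by its measured counts, which were lower in kidneys of runx1 null fish than in those of their wild type siblings, so its own levels are given here as a description, with no test. The kidneys were dissected from fish of the EK strain about 2.5 months old. The runx1 null fish were homozygous for the del25 allele (hg97) of runx1, a germline mutation present in every cell, and the controls were wild type siblings. RNA from whole kidney was sequenced as 3 pools per genotype, and each pool held 3 kidneys. The labels give no sex of the fish.

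Most proteins of the ABC family are membrane proteins that use the energy of ATP to move substrates across membranes. Subfamily C holds the multidrug resistance-associated proteins, the chloride channel CFTR and the sulfonylurea receptors. In humans ABCC13 is regarded as a pseudogene that makes no working transporter. Adult zebrafish make their blood in the kidney, whose marrow holds erythroid cells, thrombocytes (the nucleated counterparts of platelets), leukocytes and their precursors beside the nephrons. RUNX1 is a transcription factor needed for definitive blood stem cells and, in mammals, for the maturation of megakaryocytes, the cells that shed platelets.

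The libraries held 16147770 to 27480381 expected counts in runx1 null pools and 23821763 to 30577328 in wild type pools. The mutated gene itself had only 0, 5 and 5 counts in the runx1 null libraries and 8, 5 and 7 in the wild type libraries, too few to check a label. The tissue labelled kidney held tubule transcripts in every library, with 18 matched tubule genes summing to 2031 to 4272 CPM (counts scaled to library size) in runx1 null pools and 541 to 3352 CPM in wild type pools, and umod at 0 throughout. Wild type pool 1 stood apart. Its 28 matched erythroid genes summed to 159100 CPM, against 74890 to 90920 CPM in the other 5 libraries, and its tubule, endothelial (103 CPM) and liver (204 CPM) sums were the lowest of the 6. Liver, pancreas, oocyte and interrenal transcripts also varied between pools of both genotypes, as their summed levels over the matched markers show. Liver markers summed to 1718 to 28480 CPM in runx1 null pools and 204 to 27310 CPM in wild type pools. Both maxima were in pool 3 of the genotype. There the vitellogenin genes vtg1 and vtg2 were at 17052 and 3382 CPM in wild type and 1642 and 412 CPM in runx1 null. Pancreas markers summed to 12.7 to 285 CPM in runx1 null pools and 6.32 to 12.95 CPM in wild type pools. Oocyte markers summed to 3.47 to 269 CPM in runx1 null pools and 5.31 to 908 CPM in wild type pools. Interrenal markers summed to 13.1 to 2701 CPM in runx1 null pools and 7.38 to 764 CPM in wild type pools. The part of these tissues in the results below was not tested.

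abcc13 had 53, 145 and 65 counts in the runx1 null libraries and 403, 582 and 600 counts in the wild type libraries. After scaling by the trimmed mean of M-values (TMM), its level was 3.17, 4.91 and 2.41 CPM in runx1 null pools 1, 2 and 3, against 19.4, 23.0 and 18.2 CPM in wild type pools 1, 2 and 3. The TMM factor was 0.771 in wild type pool 1 and 1.015 to 1.077 in the other libraries, so the order of the wild type pools rests in part on it. The genotypes did not overlap, and the lowest wild type pool was 3.72 times the highest runx1 null pool. The mean was 3.50 ± 1.28 CPM in runx1 null and 20.2 ± 2.49 CPM in wild type (SD, n = 3 each), so the runx1 null mean was 17.3% of the wild type mean. The fitted log2 fold change, runx1 null over wild type, was -2.53 with a standard error of 0.35.

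The pools of one genotype lay close together. After TMM scaling the highest wild type pool was 1.26 times the lowest, and the highest runx1 null pool was 2.04 times the lowest. Relative to library totals alone the wild type pools were further apart, with pool 1 the lowest. Counting error alone amounted to 8.3% to 13.7% of the count in the runx1 null libraries and to 4.08% to 4.98% in the wild type libraries. All 6 expected counts of abcc13 were whole numbers, so no fraction of a read was visibly assigned between it and another gene. In RNA of whole kidney, fewer cells that express abcc13 and less abcc13 RNA per cell cannot be told apart.

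**Figure D1:**
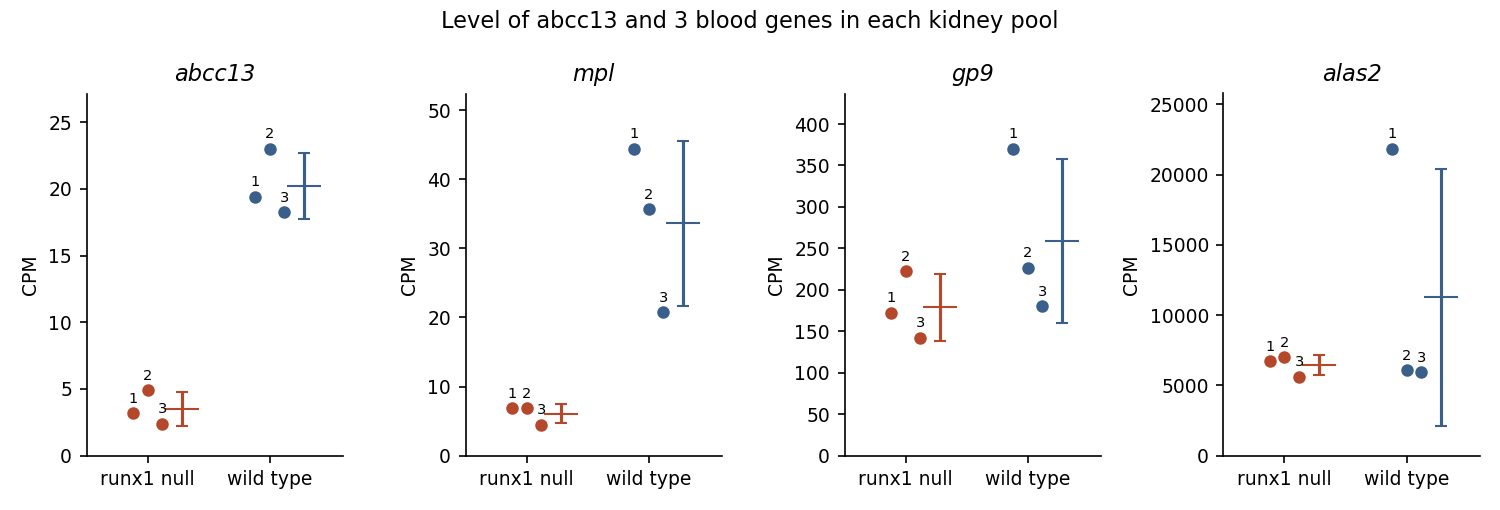
Level in CPM of abcc13, the thrombocyte genes mpl and gp9 and the erythroid gene alas2 in each kidney pool, with runx1 null on the left; points carry the pool number, and the bar shows the mean with the SD of 3 pools. abcc13 and mpl do not overlap between genotypes, while alas2 stands at 21846 CPM in wild type pool 1 and between 5624 and 7020 CPM in the other 5 pools.

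Thrombocyte genes were the first lineage set beside abcc13. Of 34 listed genes 18 matched an identifier and 17 had enough counts to be tested. Over all 18864 tested genes, 0 (0%) were called at an adjusted p-value of 0.05 by edgeR's quasi-likelihood test, none of them thrombocyte genes, while 987 had an unadjusted p-value under 0.05. DESeq2's Wald test, an alternative, called 105 genes (0.557%), of which 69 (0.366%) were lower in runx1 null. It called 4 of the 17 thrombocyte genes, all lower: itga2b, mpl, APLN and FGL2. In edgeR 5 of the 17 were lower at an unadjusted p-value under 0.05, against 2.66% of all tested genes, and 0 were higher at that level, against 2.57%. For 6 of the 17 all runx1 null pools lay under the lowest wild type pool, against 6.24% of all tested genes. The median log2 fold change of the list was -0.53, beside -0.03 for all tested genes. The whole list was chosen with earlier results of these data known, so its counts are a description. Without APLN and FGL2, 3 of 15 genes were lower at an unadjusted p-value under 0.05 and the median was -0.39. Those 15 were chosen with the same knowledge.

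Some genes of the list had fold changes as large as that of abcc13. itga2b (ENSDARG00000018687), an integrin subunit of the platelet fibrinogen receptor, was at 22.0, 38.2 and 6.97 CPM in runx1 null pools and 257, 207 and 120 CPM in wild type pools. Its log2 fold change was -3.12 (SE 0.65; adjusted p 0.707 in edgeR and 0.000899 in DESeq2). mpl (ENSDARG00000039222), the thrombopoietin receptor, was at 6.88, 6.90 and 4.49 CPM in runx1 null pools and 44.4, 35.6 and 20.8 CPM in wild type pools, with a log2 fold change of -2.46 (SE 0.37; adjusted p 0.599 in edgeR and 4.52e-05 in DESeq2). Neither gene overlapped between the genotypes. After TMM scaling both were highest in wild type pool 1, where abcc13 was not. Relative to library totals alone, both were highest in wild type pool 2, as abcc13 was.

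FGL2 (ENSDARG00000019861, fgl2a in the list), which encodes a fibrinogen-like protein, was at 33.8, 43.7 and 26.8 CPM in runx1 null pools and 293, 223 and 117 CPM in wild type pools. APLN (ENSDARG00000053279), the apelin peptide hormone gene, was at 26.7, 38.1 and 42.6 CPM in runx1 null pools and 413, 428 and 223 CPM in wild type pools. The genotypes were apart for both genes, and APLN was highest in wild type pool 2, as abcc13 was. Their log2 fold changes were -2.60 for FGL2 (SE 0.41; adjusted p 0.599 in edgeR and 4.34e-05 in DESeq2) and -3.31 for APLN (SE 0.37; adjusted p 0.599 in edgeR and 1.27e-10 in DESeq2). pear1 (ENSDARG00000060753), a platelet receptor of the EGF-repeat type, differed by less, at 5.09, 5.58 and 4.60 CPM in runx1 null pools and 8.78, 11.6 and 9.33 CPM in wild type pools. Its log2 fold change was -0.96 (SE 0.28; adjusted p 0.811 in edgeR and 0.244 in DESeq2).

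Other defining thrombocyte genes showed no such gap. gp9 (ENSDARG00000090638), a subunit of the platelet receptor for von Willebrand factor, was at 172, 222 and 142 CPM in runx1 null pools and 370, 227 and 181 CPM in wild type pools, and the genotypes overlapped. GP1BB (ENSDARG00000074441), another subunit of that receptor, was at 106, 177 and 195 CPM in runx1 null pools and 276, 124 and 187 CPM in wild type pools. NFE2 (ENSDARG00000020606), a transcription factor of megakaryocytes and erythroid cells, was at 80.8, 81.7 and 52.8 CPM in runx1 null pools and 291, 103 and 74.2 CPM in wild type pools. Their log2 fold changes were -0.53 for gp9 (SE 0.35; adjusted p 0.811 in edgeR), -0.29 for GP1BB (SE 0.38; adjusted p 0.847 in edgeR) and -1.12 for NFE2 (SE 0.54; adjusted p 0.811 in edgeR). Without wild type pool 1 these were -0.20 for gp9, 0.03 for GP1BB and -0.32 for NFE2. abcc13 kept a log2 fold change of -2.57 without that pool. thbs1b matched no identifier and was not analysed here.

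Erythroid genes, the second lineage, had smaller differences between the genotypes than abcc13. Of 39 listed genes 28 matched and all 28 were tested. In the fit of 6 libraries 26 of them were lower in runx1 null. The median log2 fold change was -0.40 and the range -1.32 to 0.09, so each of the 28 had a smaller difference than abcc13. abcc13 was chosen on that difference, and only 3 of the 17 tested thrombocyte genes had a more negative value. None of the 28 erythroid genes passed in edgeR or in DESeq2. At an unadjusted edgeR p-value under 0.05 there was 1 lower gene of 28, klf17, against 2.66% of all tested genes. For 2 of the 28, klf17 and hbaa1, the runx1 null pools were all below the wild type pools, a share near the 6.24% of all tested genes.

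The lower erythroid level rested on wild type pool 1. After TMM scaling that pool was the highest of the 6 libraries for 26 of the 28 erythroid genes. It was the highest for 9 of the 17 thrombocyte genes and for 30.5% of all tested genes. Without it, 10 of the 28 erythroid genes were lower in runx1 null and their median log2 fold change was 0.14, while 12 of the 17 thrombocyte genes were lower with a median of -0.27. alas2 (ENSDARG00000038643), the first enzyme of erythroid heme synthesis, was at 6735, 7020 and 5624 CPM in runx1 null pools and 21846, 6077 and 5933 CPM in wild type pools. Its log2 fold change was -0.80 (SE 0.61; adjusted p 0.811 in edgeR), and 0.10 without wild type pool 1. gata1a (ENSDARG00000013477), the main erythroid transcription factor, was at 152, 286 and 142 CPM in runx1 null pools and 480, 184 and 146 CPM in wild type pools. Its log2 fold change was -0.48 (SE 0.53; adjusted p 0.827 in edgeR), and 0.21 without that pool.

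The other erythroid genes named here cover regulators, globin, heme synthesis and the cell membrane. klf17 (ENSDARG00000038792), a Krüppel-like factor of zebrafish red cells, was at 60.4, 75.5 and 52.3 CPM in runx1 null pools and 268, 118 and 83.5 CPM in wild type pools. The log2 fold change of klf17 was -1.32 (SE 0.46; adjusted p 0.811 in edgeR), and -0.70 without wild type pool 1. The adult alpha globin gene hbaa1 (ENSDARG00000097011) had one of -0.48 (SE 0.53; adjusted p 0.828 in edgeR), and -0.27 without that pool, though reads of similar globin genes could have been divided among them. CPOX (ENSDARG00000062025), a later enzyme of heme synthesis, had one of -0.84 (SE 0.51; adjusted p 0.811 in edgeR), and -0.12 without wild type pool 1. RHAG (ENSDARG00000019253), a red cell membrane channel for ammonia, had -0.31 (SE 0.61; adjusted p 0.896 in edgeR), and 0.65 without wild type pool 1. EPOR (ENSDARG00000090834), the erythropoietin receptor, had -0.05 (SE 0.41; adjusted p 0.980 in edgeR) and klf1 (ENSDARG00000017400), a Krüppel-like factor of erythroid cells, had -0.11 (SE 0.39; adjusted p 0.945 in edgeR). Without wild type pool 1 they were 0.20 for EPOR and 0.35 for klf1. slc4a1a and hbba1 matched no single identifier and were not analysed here.

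**Figure D2:**
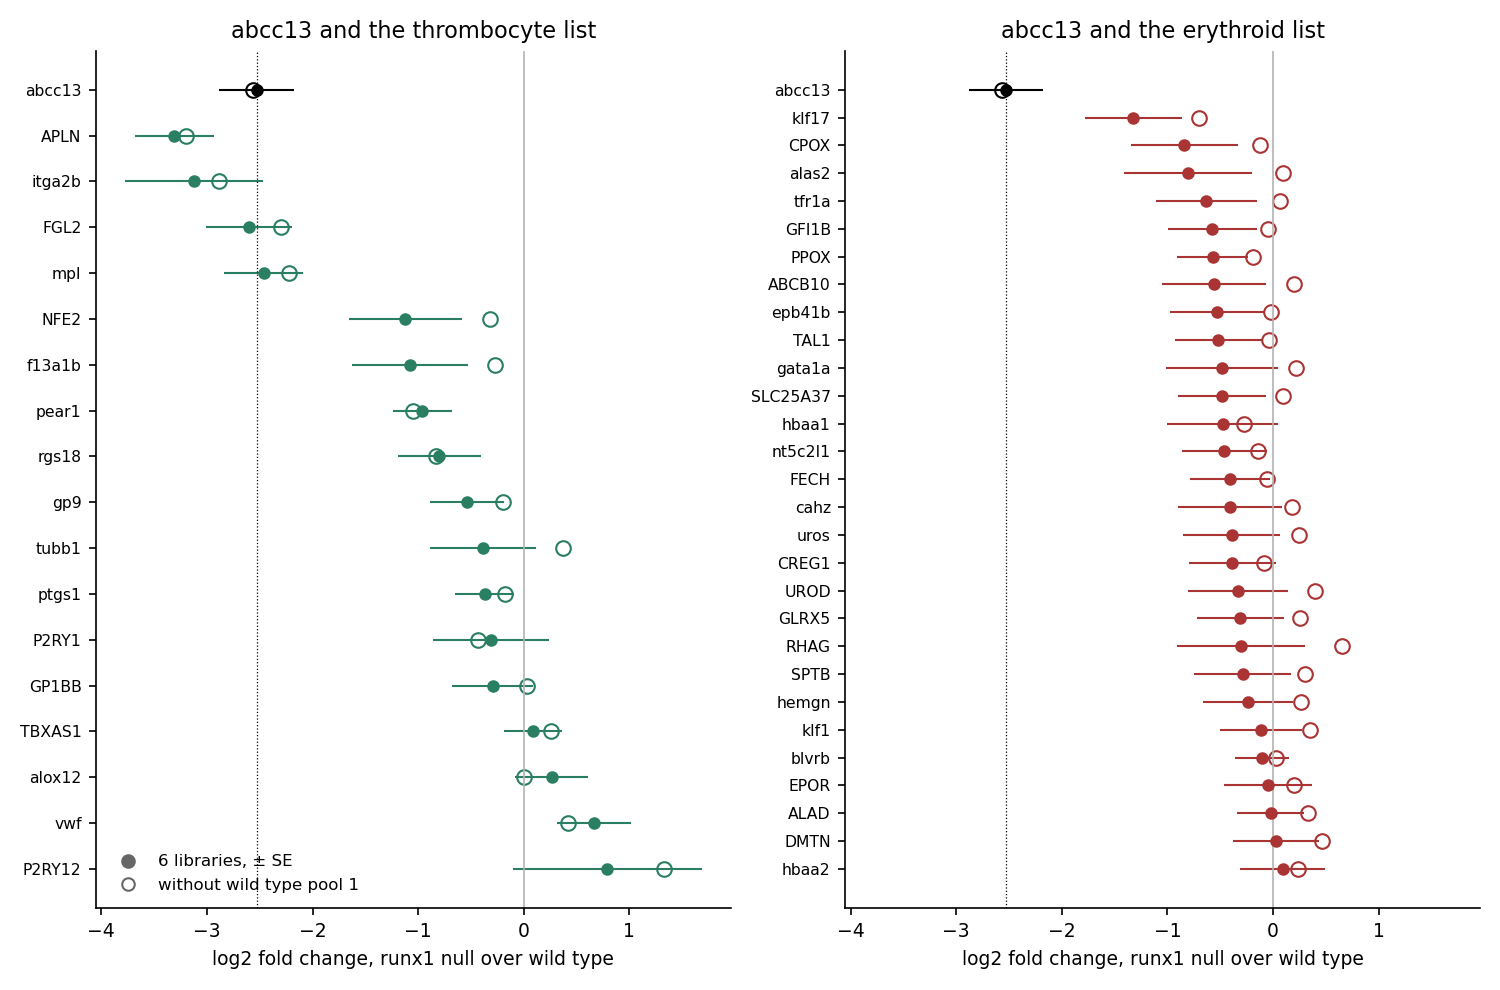
Log2 fold change, runx1 null over wild type, of abcc13 (black, dotted line) and of the tested genes of the thrombocyte list (left) and the erythroid list (right); filled points are the fit of 6 libraries with its SE, and open circles the fit without wild type pool 1. APLN, itga2b, FGL2 and mpl lie near or below abcc13 in both fits, whereas the erythroid median of -0.40 becomes 0.14 without that pool.

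Library by library, abcc13 was compared with each list by subtracting the list's score, its mean log2 CPM over the tested genes. The size of the offset depends on the levels of the genes in each list, so only its variation between libraries is compared. abcc13 minus the thrombocyte score averaged -2.52 in runx1 null and -0.87 in wild type, a difference of -1.65 where the within-genotype SD was 0.33. abcc13 minus the erythroid score averaged -6.56 in runx1 null and -4.30 in wild type, a difference of -2.26 with a within-genotype SD of 0.56. On the same log2 scale abcc13 alone differed by -2.56, with a within-genotype SD of 0.38. These differences hold the genotype difference on which abcc13 was selected and are a description. With APLN and FGL2 left out of the thrombocyte score, the difference from it was -1.92. Without wild type pool 1 the differences were -1.86 from the thrombocyte score and -2.68 from the erythroid score.

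**Figure D3:**
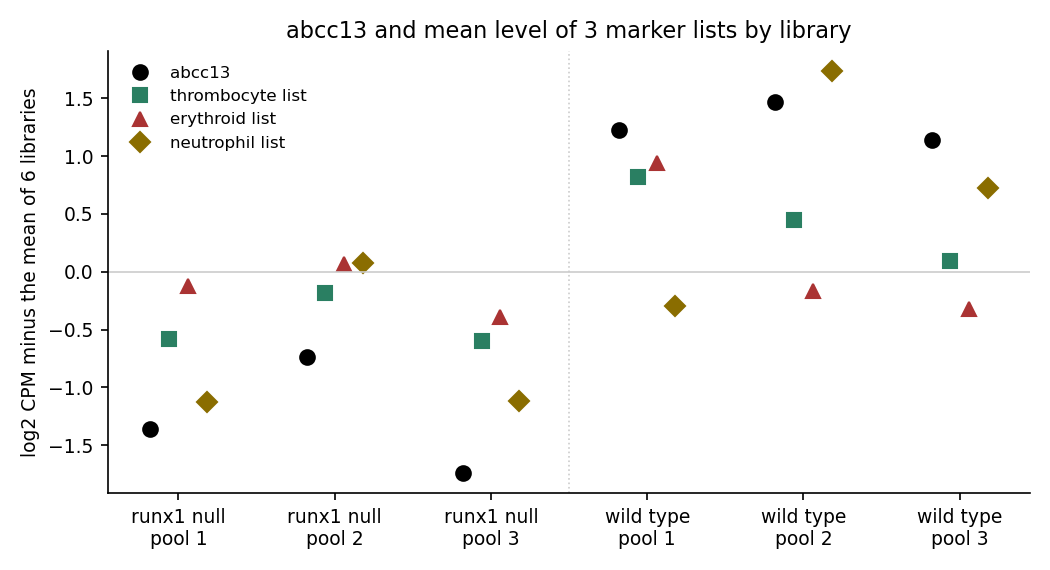
Log2 CPM of abcc13 and mean log2 CPM of the thrombocyte, erythroid and neutrophil lists in each library, each centred on its mean over 6 libraries, with runx1 null on the left. abcc13 is below its mean in all runx1 null pools and above it in all wild type pools, the erythroid score is high in wild type pool 1 and the neutrophil score is high in wild type pool 2.

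Likeness over libraries was measured as Pearson's r between log2 CPM of abcc13 and of each gene over the 6 libraries. Since abcc13 differed between the genotypes, a gene with a genotype difference of the same sign that is large beside its spread between pools has a high r, so r was also computed after the genotype means were removed. All these correlations are descriptions over 6 points that share their libraries and scaling. The thrombocyte genes had a median r of 0.61 and the erythroid genes one of 0.38, beside -0.01 for all other tested genes. An r above 0.8 was reached by 6 of 17 thrombocyte genes, by 0 of 28 erythroid genes and by 3.39% of all other tested genes. Without APLN and FGL2 it was reached by 4 of 15 thrombocyte genes, also chosen with earlier results known, whose median r was 0.61. The 6 were pear1 (0.98), itga2b (0.97), mpl (0.96), FGL2 (0.96), APLN (0.96) and rgs18 (0.81), a regulator of G-protein signalling found in platelets. The highest erythroid value was 0.77, for klf17.

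Within the genotypes the lineages were less distinct. abcc13 was at 1.70, 2.32 and 1.32 log2 CPM in runx1 null pools and 4.29, 4.53 and 4.20 in wild type pools. All within-genotype r with abcc13 therefore rest mostly on runx1 null pools 2 and 3. Those pools also differed in their liver sums, 1718 and 28480 CPM, and the part of that difference was not tested. After removal of the genotype means the median r was 0.34 for thrombocyte genes, 0.22 for erythroid genes and -0.02 for all other tested genes. itga2b had the highest value of the thrombocyte genes, 0.88, and APLN was at 0.15. CREG1 had the highest of the erythroid genes, 0.75. These values also turned on wild type pool 1: without it the within-genotype median was 0.87 for erythroid genes and 0.59 for thrombocyte genes, and 18 of 28 and 7 of 17 genes were above 0.8, against 12.84% of all other tested genes. Over the same 5 libraries with the genotype means kept, the median r was -0.10 for erythroid genes and 0.65 for thrombocyte genes.

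**Figure D4:**
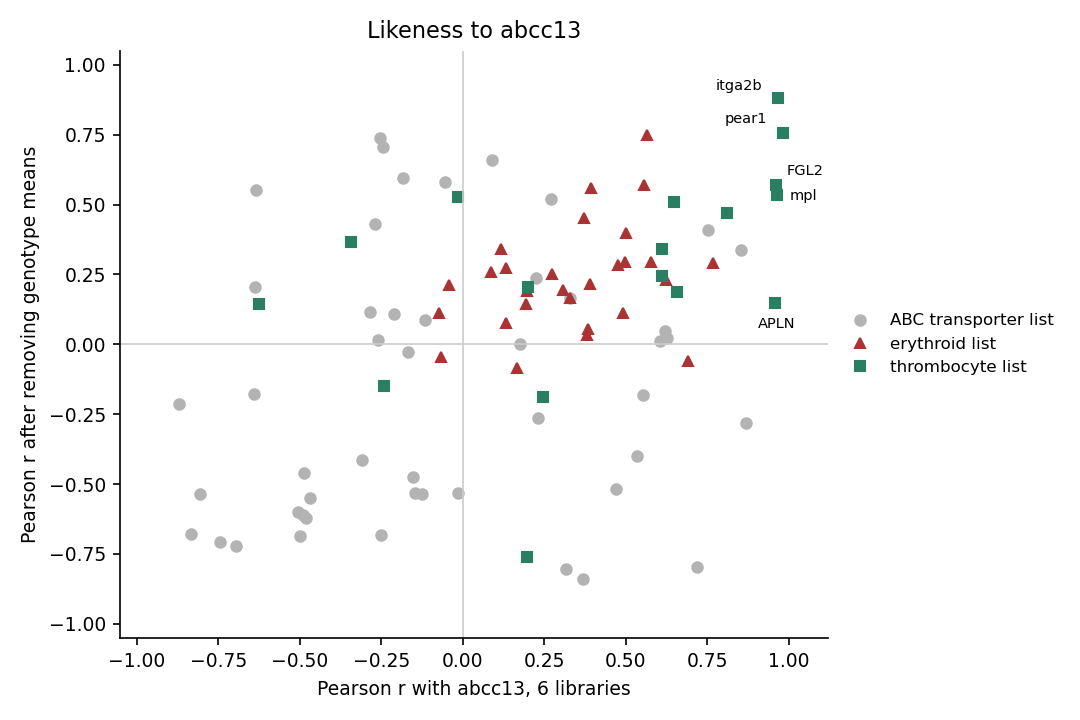
Pearson's r of each tested gene's log2 CPM with that of abcc13 over 6 libraries (horizontal) against the same r after removal of the genotype means (vertical), for the thrombocyte, erythroid and ABC transporter lists. The thrombocyte genes itga2b, pear1, FGL2, mpl and APLN lie at the right edge, and erythroid genes reach at most 0.77 on the horizontal axis.

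Neutrophil genes also differed in the direction of abcc13. Of 13 listed genes 7 matched and 7 were tested, and 6 of the 7 were lower in runx1 null, with a median log2 fold change of -1.31. None passed in edgeR, and 3 were lower at an unadjusted p-value under 0.05, against 2.66% of all tested genes. DESeq2 called 2, lyz and npsn, both lower, against 0.366% of all tested genes. The median was -2.30 without runx1 null pool 2, the runx1 null pool with the highest neutrophil sum, and -0.66 without wild type pool 2, the wild type pool with the highest. The summed level of the list was 243 to 532 CPM in runx1 null pools and 386 to 1773 CPM in wild type pools, and no matched marker was at 0 in all libraries. The median r of the 7 genes with abcc13 was 0.75 over 6 libraries and 0.59 within genotypes, each higher than that of the thrombocyte genes. Over 6 libraries 1 of the 7 had an r above 0.8, against 3.39% of all other tested genes. Without wild type pool 1 the median r was 0.87, against 0.65 for thrombocyte genes. In that setting 5 of the 7 were above 0.8, against 5 of 17 thrombocyte genes and 6.385% of all other tested genes. The neutrophil sum was 263, 532 and 243 CPM in runx1 null pools 1, 2 and 3 and 386, 1773 and 960 CPM in wild type pools 1, 2 and 3. The runx1 null pools stood in the same order for the sum as for abcc13. Pool 2 was the highest wild type pool for both. Wild type pools 1 and 3 stood in the opposite order, but abcc13 was close in them, at 19.4 and 18.2 CPM. Relative to library totals alone, without the TMM factors, pool 3 was above pool 1 for abcc13 too. Other leukocyte lists gave mixed values. The 8 tested B lymphocyte genes had a median log2 fold change of -1.29 and a median r of 0.50, or -0.18 within genotypes. For the 13 tested macrophage genes these were -0.19, 0.39 and 0.43. For the 15 tested T and NK lymphocyte genes they were 0.27, -0.28 and -0.57. The 15 include polr1g, the match for the listed name cd3eap, which is an RNA polymerase gene and not a lymphocyte marker. Whether neutrophils or other leukocytes contributed to the abcc13 signal was not tested.

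The genes most like abcc13 were taken from the 13772 tested genes whose log2 CPM averaged 1 or more. The highest r over 6 libraries, 0.99, was that of VEGFC (ENSDARG00000069640), a growth factor of lymphatic vessels, at 2.03, 2.57 and 1.85 CPM in runx1 null pools and 5.88, 7.198 and 5.29 CPM in wild type pools. tgfb1b (ENSDARG00000034895), a transforming growth factor beta gene, was the next at 0.99, with 6.88, 9.20 and 6.41 CPM in runx1 null pools and 26.7, 28.0 and 19.3 CPM in wild type pools. For both genes the 6 libraries stood in the same order as for abcc13, as they did for si:ch211-214p13.7 and IGFBP1, named below. These genes were picked by r over the same libraries, so a shared order follows largely from the pick. Of all other tested genes 0.133% had that order. The log2 fold change was -1.50 for VEGFC (SE 0.34; adjusted p 0.760 in edgeR and 0.0213 in DESeq2) and -1.72 for tgfb1b (SE 0.29; adjusted p 0.599 in edgeR and 0.00145 in DESeq2).

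The other 8 of the 10 most similar genes had r of 0.98 to 0.99. They were relt, a tumour necrosis factor receptor family gene; si:ch211-214p13.7; SLC49A4, a lysosomal transporter gene; pear1; RAC3, a small GTPase; AAR2, a splicing factor; CCND2, cyclin D2; and IGFBP1, an insulin-like growth factor binding protein. Their log2 fold changes ran from -2.46 for RAC3 to -0.30 for relt, so a high r did not require a difference as large as that of abcc13. si:ch211-214p13.7 (ENSDARG00000092288) had an r of 0.99. It was at 1.197, 1.35 and 1.15 CPM in runx1 null pools and 5.79, 6.72 and 5.20 CPM in wild type pools, with a log2 fold change of -2.25 (SE 0.34; adjusted p 0.599 in edgeR and 1.18e-05 in DESeq2). RAC3 (ENSDARG00000090062) was at 1.197, 1.42 and 0.742 CPM in runx1 null pools and 7.76, 6.49 and 4.35 CPM in wild type pools.

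Removal of the genotype means gave other genes. The 5 highest within-genotype r, 0.994 to 0.998, were those of AIF1L, an actin-binding protein gene, SH3PXD2A, an adaptor gene of podosomes, DIS3, a nuclease of the RNA exosome, ENSDARG00000103841, which has no symbol in the tables used, and adam8a, a membrane metalloprotease gene. None of them separated the genotypes. AIF1L (ENSDARG00000009336) was at 39.6, 54.6 and 32.3 CPM in runx1 null pools and 39.3, 45.2 and 38.7 CPM in wild type pools, a log2 fold change of 0.04 (SE 0.27; adjusted p 0.976 in edgeR). These 5 were the highest by this measure among the 13772 genes, so such high values follow largely from the pick. They too rest mostly on runx1 null pools 2 and 3. Of all other tested genes 2.62% had a within-genotype r above 0.8.

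Among the ABC transporters, abcc13 had the most negative log2 fold change in the fit of 6 libraries. It was chosen for its lower counts in runx1 null, and its value ranked 126 from the lowest of 18864 tested genes. Its place in the family follows largely from that choice and is a description. Of 57 identifiers with an ABC family symbol, 56 besides abcc13 were measured and 48 of those were tested. Members were taken by symbol alone and not by transport function, so subfamilies ABCE and ABCF were included. Their median log2 fold change was 0.06, with 21 lower and 27 higher in runx1 null, and 0 of the 48 had a more negative value than abcc13. Without runx1 null pool 3, abcb5 was below abcc13, at -4.88 against -2.32. None passed in edgeR. At an unadjusted p-value under 0.05, 2 of the 48 were lower, against 2.66% of all tested genes, and 1 was higher, against 2.57%. Between the genotypes 6 did not overlap and were lower, against 6.24% of all tested genes, and 2 did not overlap and were higher, against 6.24% as well.

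ABCB9 (ENSDARG00000056200), a peptide transporter of lysosomes, came nearest to abcc13. It was at 9.93, 8.36 and 13.7 CPM in runx1 null pools and 31.0, 47.1 and 24.2 CPM in wild type pools, with no overlap. Its log2 fold change was -1.67 (SE 0.35, adjusted p 0.707 in edgeR). It was the 1 of these 48 that DESeq2 called (adjusted p 0.0173), against 0.557% of all tested genes. Of the 12 other tested genes of subfamily C, 7 were lower and 5 higher, from -0.93 to 1.24 with a median of -0.11. The lowest was abcc10 (ENSDARG00000077988), a drug efflux transporter gene in mammals, at 15.1, 20.4 and 14.4 CPM in runx1 null pools and 43.3, 24.0 and 28.1 CPM in wild type pools (log2 fold change -0.93, SE 0.31; adjusted p 0.811 in edgeR). ABCC4 (ENSDARG00000058953), a nucleotide transporter found in platelet granules in mammals, was at 56.9, 50.1 and 70.6 CPM in runx1 null pools and 76.0, 63.3 and 62.6 CPM in wild type pools, with overlap (log2 fold change -0.19, SE 0.24; adjusted p 0.844 in edgeR).

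The ABC transporters of heme handling did not share the size of the abcc13 difference. Of these, ABCB10 was also counted in the erythroid list. ABCB10 (ENSDARG00000061591), a mitochondrial transporter of erythroid cells, had a log2 fold change of -0.56 (SE 0.49; adjusted p 0.811 in edgeR), and 0.19 without wild type pool 1. The table gave the symbol ABCB6, a porphyrin transporter, to 2 identifiers, with log2 fold changes of 0.17 (ENSDARG00000063297, SE 0.23; adjusted p 0.850 in edgeR) and -0.94 (ENSDARG00000074254, SE 0.43; adjusted p 0.811 in edgeR). Of the ABCG2 paralogs, efflux pumps that mark stem cells in mammals, abcg2a was at 0.17 (SE 0.39; adjusted p 0.911 in edgeR) and abcg2c at -0.56 (SE 0.43; adjusted p 0.811 in edgeR). The other members with the most extreme values were the sterol transporter genes ABCG5 (1.93, SE 1.44; adjusted p 0.811 in edgeR) and ABCG8 (1.70, SE 1.46; adjusted p 0.811 in edgeR), the lipid transporter gene abca1b (1.27, SE 0.95; adjusted p 0.811 in edgeR) and abcb5 (-0.97, SE 1.43; adjusted p 0.860 in edgeR). The levels of these 4 varied widely between pools of one genotype.

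**Figure D5:**
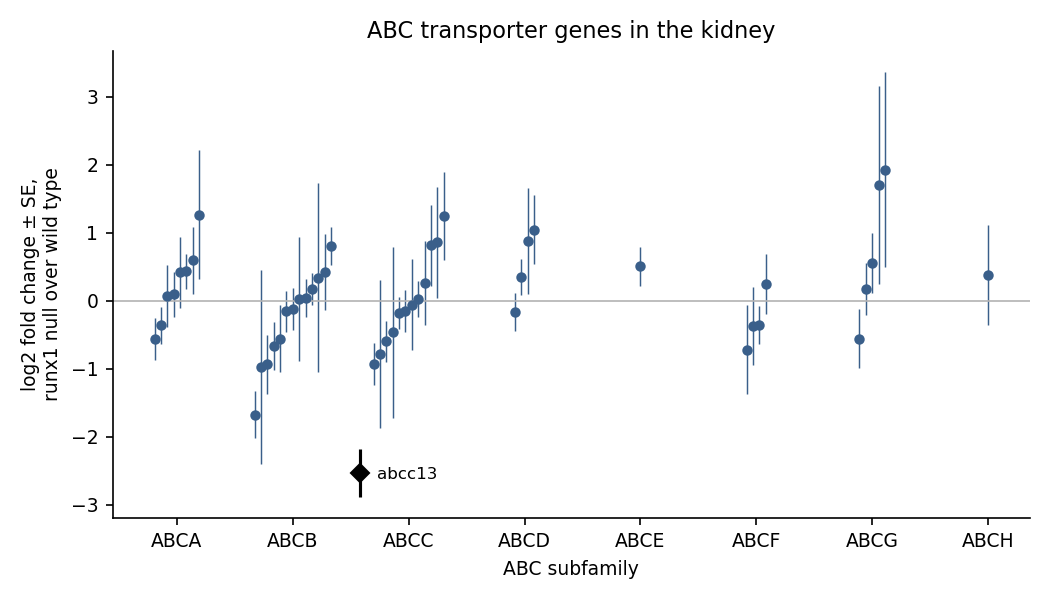
Log2 fold change with SE, runx1 null over wild type, of abcc13 (black diamond) and of 48 other tested ABC transporter genes by subfamily. In this fit of 6 libraries abcc13 at -2.53 lies below the 48 others, of which ABCB9 at -1.67 is the next. abcc13 was chosen for its lower counts in runx1 null.

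In the RefSeq gene list of assembly GRCz12tu, abcc13 lies on chromosome 24 and runx1 on chromosome 1. Of the 6 nearest matched protein-coding genes, 3 on each side, 5 were tested and none passed in edgeR. The adjacent gene on one side is lyz (ENSDARG00000057789), the lysozyme of neutrophils and macrophages, at 61.4, 31.3 and 96.3 CPM in runx1 null pools and 163, 953 and 550 CPM in wild type pools. Its log2 fold change was -3.14 (SE 0.73; adjusted p 0.782 in edgeR and 0.00220 in DESeq2). Although lyz was also lower in every runx1 null pool, its order of pools was another one than that of abcc13, with r of 0.79 over 6 libraries and -0.35 within genotypes.

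On the other side zgc:112408 and lipib were low in all libraries. zgc:112408 (ENSDARG00000016207) was at 1.197, 1.42 and 0.927 CPM in runx1 null pools and 3.76, 2.73 and 1.70 CPM in wild type pools (log2 fold change -1.20, SE 0.45; adjusted p 0.811 in edgeR). lipib (ENSDARG00000005332), a lipase family gene, was at 0.479, 1.116 and 0.334 CPM in runx1 null pools and 1.30, 2.06 and 2.43 CPM in wild type pools (log2 fold change -1.57, SE 0.59; adjusted p 0.811 in edgeR). Neither gene overlapped between genotypes, and lipib had an r with abcc13 of 0.92. The next genes out, zgc:112982 and zmp:0000000991, had log2 fold changes of -0.07 (SE 0.27; adjusted p 0.953 in edgeR) and 0.15 (SE 0.37; adjusted p 0.919 in edgeR), and their genotypes overlapped. CHODL had too few counts to be tested. With lyz, 3 of the 5 tested neighbours did not overlap and were lower, where 6.24% of all tested genes did so.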

How the data were processed

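The authors deposited 1 table of expected counts per library for 32266 Ensembl genes. Per the submitters' processing notes, STAR, RSEM, DESeq2 and genome build GRCz10 were used, with no role or order given. The annotation, the strand setting and filters are not given in the sources used here. Between 12.74% and 14.91% of nonzero values were not whole, and library totals differed, so values were rounded before testing. Reads that fit several similar genes are shared out among them in expected counts, and the tables do not show the error of that step, and antisense or overlapping genes could share reads.

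Symbols matched 26433 identifiers; many follow human nomenclature. List genes were matched by symbol or through RefSeq synonyms, if unique.

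edgeR 4.0.16 (R 4.3.3) fitted genotype with TMM scaling and filterByExpr at a minimum count of 10. P-values were adjusted by Benjamini-Hochberg over 18864 genes, with a threshold of 0.05. The SE is the log2 fold change divided by the square root of F. DESeq2 1.42.0 without independent filtering was an alternative. Log2 CPM used a prior count of 2. The fits were also run on simulated counts, drawn independently for each gene. The outcome of that run is not reported here.

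Named genes were abcc13, runx1, fixed blood and ABC genes, up to 3 with the most extreme fold changes per list or direction, the 10 and 5 most similar genes and the neighbours; rgs18, CREG1, npsn and abcc10 were named after their values were seen, and 1 ABC gene of the rule is not reported here. abcc13 and all lists were chosen with earlier results of these data known. Alternatives were other scalings, filters, rounding, robust fitting, the replicate number as a block and leaving out each library.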

Additional observations from a re-analysis of the deposited data

How the results depend on the processing

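The log2 fold change of abcc13 ran from -2.89 to -2.32 over the 14 alternatives, and the replicate block gave -2.59. abcc13 was chosen for its lower counts in these same libraries, so its negative sign in each follows from the choice. DESeq2 called 105 genes, 4 of the thrombocyte list and 1 of the ABC list, where edgeR called 0 in each of its fits, the replicate block and the fits without 1 library included. Pools with the same number are of different fish, and the correlations of their deviations from the group means were 0.094, -0.36 and 0.46; 2 of 6 libraries correlated best with their own number, and the block changed no call. With each library left out in turn, list medians ran from -0.85 to -0.27 (thrombocyte), from -0.65 to 0.14 (erythroid, positive without wild type pool 1), from -2.30 to -0.66 (neutrophil) and from -0.065 to 0.23 (ABC, negative without runx1 null pool 3; the cause was not tested). In the same refits the median r with abcc13 ran from 0.48 to 0.76 for thrombocyte genes and from -0.10 to 0.55 for erythroid genes, and within genotypes from 0.15 to 0.59 and from 0.027 to 0.87. Spearman's rank correlation gave 0.77 for thrombocyte genes; the cause was not tested. abcc13 relative to the scores ran from -1.86 to -1.49 (thrombocyte) and from -2.68 to -2.001 (erythroid).

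For the 47 genes of the naming rule other than abcc13, the direction and the call were those of the full edgeR fit in 615 of 655 refits. The sign changed in 29, and 11 genes were called, by DESeq2 alone. DIS3 was 0.0071 when a mean count of 50 was required. The other sign changes came with 1 library left out, over ranges of -0.15 to 0.057 (DIS3), -1.15 to 0.28 (adam8a), -0.22 to 0.20 (AIF1L), -0.24 to 0.21 (SH3PXD2A), -0.26 to 0.87 (ENSDARG00000103841), -0.43 to 0.20 (EPOR), -0.33 to 0.35 (klf1), -0.90 to 0.21 (gata1a), -1.11 to 0.096 (alas2), -0.64 to 0.65 (RHAG), -0.85 to 0.19 (ABCB10), -0.54 to 0.030 (GP1BB), -0.22 to 1.97 (abca1b), -0.037 to 0.27 (ABCB6, ENSDARG00000063297), -0.30 to 0.36 (abcg2a), -0.21 to 0.12 (zgc:112982) and -0.040 to 0.54 (zmp:0000000991). The lists without apln and fgl2a and the neutrophil refits were chosen after seeing the data. With 53 to 145 counts in runx1 null libraries, the spread between pools and not counting error limits the value of abcc13. Counting errors cover sampling of reads only, whereas the SE and SD values include the spread between pools.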
